A study of Mus musculus with 4 samples.

Results

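The 10 genes described here encode the machinery with which a cell presents peptides on MHC class II molecules and gives a costimulatory signal to CD4+ T cells. They were H2-Aa, H2-Ab1, H2-Eb1, Cd74, Ciita, H2-DMa, H2-DMb1, H2-DMb2, Cd80 and Cd86. Members were chosen by name, as the rows whose gene symbol equals one of these 10, and all 10 were found among the 22558 genes counted. The RNA sequencing libraries came from activated group 2 innate lymphoid cells (ILC2s) of the lung, with 2 libraries from WT C57BL/6 mice and 2 labelled ICAM-1 KO. All mice were 6 weeks old and received 3 intranasal doses of 0.5 µg recombinant mouse IL-33 (rmIL-33), so no library represents unstimulated ILC2s. The ICAM-1-/- mice carry a germline Icam1 mutation (B6.129S4-Icam1 tm1Jcgr/J), which every cell of the animal shares, and each library was made from the pooled cells of 4 mice. ILC2s were sorted as CD45+ ST2+ CD127+ cells that lacked T cell markers (TCRβ, TCRγδ, CD3ε, CD5 and CD4), myeloid markers (CD11b, CD11c and Gr-1), the B cell marker CD45R, the erythroid marker Ter119 and FcεRIα of mast cells and basophils.

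MHC class II molecules are pairs of an α and a β chain that take up peptides in endosomes and display them on the cell surface to the T cell receptor of CD4+ T cells. The invariant chain CD74 escorts the new pair and blocks its groove, cathepsin S trims CD74 to a short remnant, and the H2-DM heterodimer exchanges this remnant for a peptide. The coactivator CIITA switches on the genes of the class II chains, CD74 and H2-DM through the DNA-binding factors RFX, CREB and NF-Y. CD80 and CD86 engage CD28 and CTLA-4 on the T cell. Macrophages, dendritic cells and B cells are the classical class II positive cells, alveolar type II epithelium also carries class II, and lung ILC2s are known to display class II at lower levels.

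Each library held between 24796148 and 28782471 assigned reads. Icam1 (chr9:21015985-21028817, plus strand, mm10), the targeted gene, had normalized counts of 85.2 and 83.3 in the WT libraries and 97.6 and 110.0 in those labelled ICAM-1 KO. Its RNA was therefore not lower under the knockout label (log2 difference 0.33, edgeR quasi-likelihood test, adjusted p = 0.0745), and a count over the whole gene does not show whether the mutated part is present. Icam1 also shares exonic bases with Gm47079 on the opposite strand. This RNA count does not measure protein, and the paper reports from flow cytometry that lung ILC2s of rmIL-33-challenged ICAM-1-/- mice lacked ICAM-1. The samples are named here by their label, as the ICAM-1 KO-labelled libraries. A normalized count is the authors' upper quartile scaled value, and log2 differences are the ICAM-1 KO-labelled libraries minus WT. The ILC2 genes Gata3 and Il1rl1, which encodes ST2, were high in all 4 libraries, at normalized counts of 425 to 537 and of 626 to 774.

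Most class II genes were higher in the ICAM-1 KO-labelled libraries. All 10 members passed the filter on low counts, and 7 rose at an adjusted p under 0.05 in edgeR's quasi-likelihood test, namely H2-Aa, H2-Ab1, H2-Eb1, Cd74, H2-DMa, H2-DMb2 and Cd80. None fell, and none was lower at an unadjusted p under 0.05 or with DESeq2 or limma. Over all 11711 genes tested, 8.8% rose by the same rule. H2-DMb2 and Cd80 also passed a 2-fold limit, which 4.94% of all genes passed upward. With no filter on low counts, 4 members passed in place of 7. Both ICAM-1 KO-labelled libraries lay above both WT libraries for 9 of the 10 members, against 28.3% of all genes, and Ciita was the exception. The median log2 difference of the members was 0.86, and that of all genes tested was 0.01. Summed over the 10 members, the normalized counts ranged from 1015 to 1112 in the WT libraries and from 1736 to 2036 in the ICAM-1 KO-labelled libraries. Because RNA was measured in pools of sorted cells, more cells carrying a transcript and more transcript per cell cannot be told apart.

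**Figure D1:**
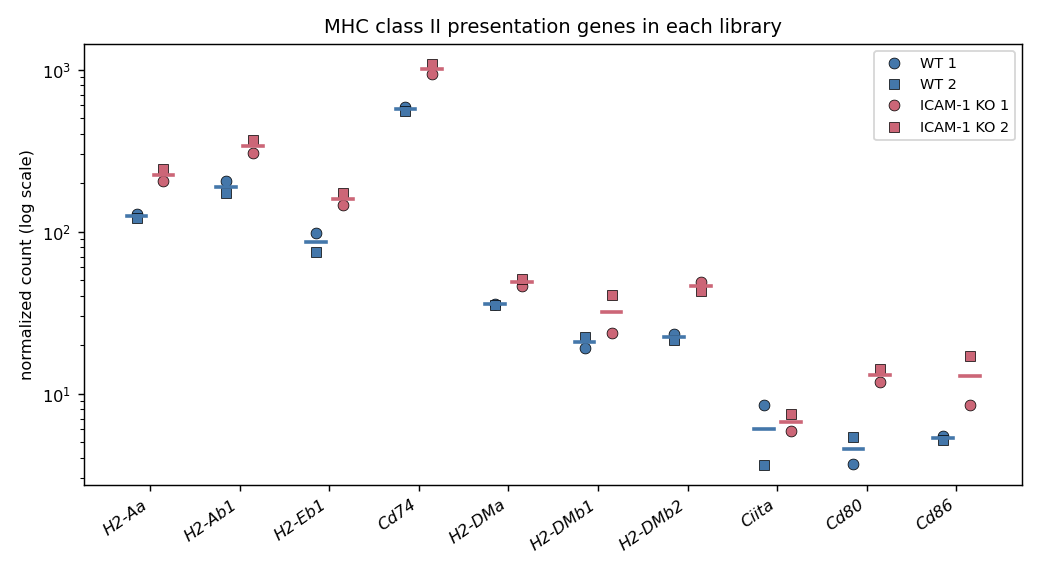
Normalized counts of the 10 genes in each library (log axis), with WT libraries in blue, ICAM-1 KO-labelled libraries in red, circles for the first and squares for the second replicate, and a bar at the group mean. For 9 genes both ICAM-1 KO-labelled libraries lie above both WT libraries, while for Ciita the groups overlap.

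Transcripts of other cell types that carry class II were present in every library and were also higher in the ICAM-1 KO-labelled libraries. As background for the counts that follow, 8.8% of all genes tested rose at an adjusted p under 0.05 in edgeR. Of 16 macrophage and monocyte markers, 14 were tested, and 8 of the 12 with a WT mean of at least 1 normalized count rose. Marco and Mertk passed the filter on low counts only through the ICAM-1 KO-labelled libraries and are not counted. The summed normalized counts of the whole list, with Marco and Mertk, ranged from 550 to 552 in WT and from 960 to 1175 in the ICAM-1 KO-labelled libraries. The most abundant were Lyz2, which encodes lysozyme (log2 difference 1.46, adjusted p = 0.00324), and Ccr2, which lymphocytes also express (0.32, adjusted p = 0.0563). Dendritic cell markers gave 4 risers among 8 tested of 12 listed, with sums of 209 to 264 in WT and 288 to 310 under the knockout label. Here Ccr7, a chemokine receptor shared with lymphocytes, led (0.13, adjusted p = 0.543), followed by the inhibitory receptor gene Sirpa (0.79, adjusted p = 0.0147). B cell markers gave 6 risers among 9 tested of 11 listed, with sums of 176 to 197 in WT and 306 to 376 under the knockout label, led by Ms4a1, which encodes CD20 (1.01, adjusted p = 0.00791), and the B cell receptor gene Cd79b (0.66, adjusted p = 0.0103). Of 10 alveolar epithelial markers, 6 had a WT mean of at least 1 and 4 of these rose, while Sftpb, Lamp3 and Slc34a2 passed the filter on low counts only through the ICAM-1 KO-labelled libraries and are not counted. The whole list had sums of 83.2 to 120 in WT and of 506 to 954 under the knockout label. No tested marker of these 4 lists fell, either in edgeR, adjusted or not, or with DESeq2 or limma. All 8 endothelial markers rose as well, with sums of 130 to 133 in WT and 349 to 379 in the ICAM-1 KO-labelled libraries.

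The surfactant gene Sftpc, the most abundant of the epithelial list, had normalized counts of 24.2 and 0.570 in WT and of 253 and 537 in the ICAM-1 KO-labelled libraries. Sftpa1, another surfactant gene, had 31.8 and 23.1 in WT and 112 and 220 in the other group. No marker of these 4 lists was at 0 in both WT libraries, whereas Cr2 of the B cell list and Sftpb, Slc34a2 and Cldn18 of the epithelial list were each at 0 in at least 1 library. The sorting gate removed cells with surface CD11b, CD11c or CD45R, which mark most of the immune cells named. Of 13 ILC2 genes, all tested, the receptor gene Klrg1 rose (log2 difference 0.41, adjusted p = 0.0191) and Il2ra, Arg1, Il5, Il13 and Id2 fell, while 8.8% of all genes rose and 4.97% fell. The summed counts of the 13 ILC2 genes, to which Arg1, Id2, Il5 and Il2ra contributed much, ranged from 8024 to 8474 in WT. In the ICAM-1 KO-labelled libraries they ranged from 6450 to 6657. The sums of the macrophage and monocyte, dendritic cell, B cell, epithelial and endothelial lists were thus higher, as were the class II genes, while the ILC2 sum was lower. The part of these lists in the result was not tested.

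**Figure D2:**
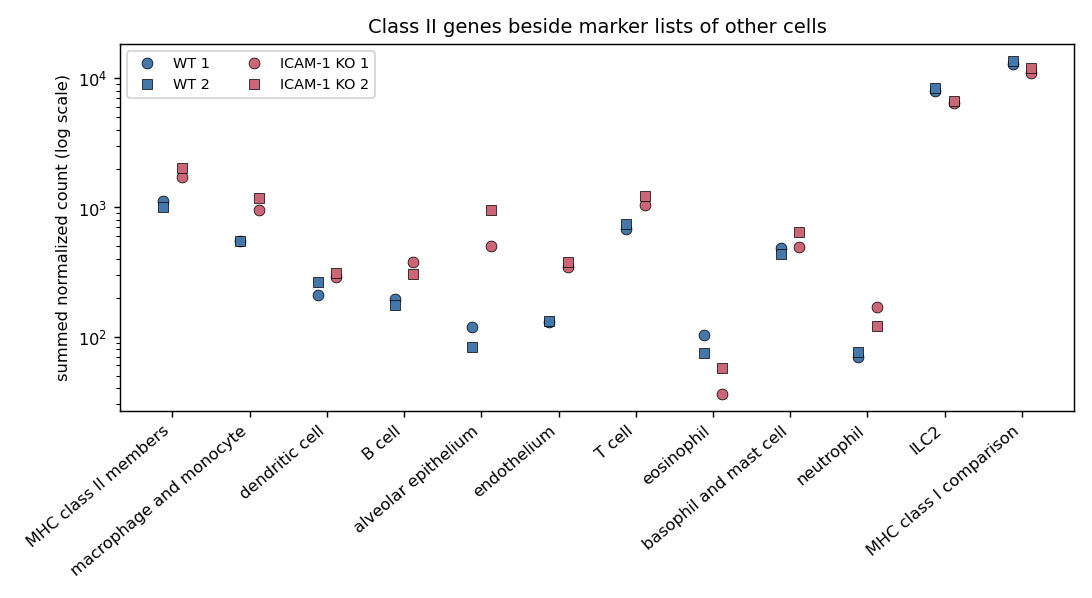
Summed normalized counts of 10 cell type marker lists and of the MHC class I list in each library (log axis), beside the sum of the 10 class II members, with WT in blue and the ICAM-1 KO label in red. The macrophage, B cell and alveolar epithelium sums are higher in both ICAM-1 KO-labelled libraries, as is the class II sum, while the ILC2 sum is lower.

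The α and β chain genes of the class II molecule I-A and the β chain gene of I-E rose together. H2-Aa, the α chain of I-A (chr17:34282744-34287827, minus strand), had normalized counts of 128.9 and 120.9 in WT and of 204.3 and 241.9 in the ICAM-1 KO-labelled libraries. H2-Ab1, its β chain (chr17:34263209-34269418, plus strand), had 205.6 and 171.7 in WT and 303.9 and 367.4 in the other group. H2-Eb1, the β chain of I-E (chr17:34305877-34316199, plus strand), had 98.4 and 74.9 in WT and 146 and 173 in the other group. For each chain the lowest ICAM-1 KO-labelled library stood clear of the highest WT library, and the second replicate labelled ICAM-1 KO was the highest of all. The log2 differences were 0.86 (SE 0.110, adjusted p = 0.00217) for H2-Aa, 0.86 (SE 0.124, adjusted p = 0.00382) for H2-Ab1 and 0.91 (SE 0.145, adjusted p = 0.00596) for H2-Eb1. C57BL/6 mice carry a defective H2-Ea gene, and H2-Ea was not analysed here.

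Cd74, which encodes the invariant chain (chr18:60803848-60812646, plus strand), was the most abundant of the 10 genes and moved as the chains did. It had normalized counts of 583 and 554 in WT and of 937 and 1081 in the ICAM-1 KO-labelled libraries, so that even the lower of these stood far above both WT values. Its group means were 569 ± 20.4 and 1009 ± 102 (SD, n = 2 each), a log2 difference of 0.85 (SE 0.0969, edgeR adjusted p = 0.00143). The miRNA gene Mir5107 lies inside Cd74 and shares 12 exonic bases with it.

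Within each library, these 4 genes kept nearly the same proportions. Per length of exon, the H2-Aa to H2-Ab1 ratio was 0.424 and 0.476 in WT and 0.455 and 0.445 in the ICAM-1 KO-labelled libraries. The Cd74 to H2-Aa ratio was 10.2 and 10.4 in WT and 10.4 and 10.1 in the other group, and the H2-Eb1 to H2-Ab1 ratio was 0.632 and 0.576 against 0.634 and 0.622. In all 3 ratios the groups overlapped. The size of such a ratio depends on the gene length used, and with the longest coding transcripts the Cd74 to H2-Aa ratio was 3.62 and 3.67 in WT and 3.67 and 3.58 in the other group, which also overlapped. The sum of the 3 chains relative to the summed macrophage and monocyte markers was 0.785 and 0.668 in WT and 0.682 and 0.666 in the ICAM-1 KO-labelled libraries, and relative to the B cell markers it was 2.20 and 2.09 against 1.74 and 2.56. Both of these ratios overlapped between groups. Ccr2 made up much of the macrophage and monocyte sum, and without it the ratio was 1.45 and 1.17 in WT and 1.03 and 0.873 in the ICAM-1 KO-labelled libraries, lower and without overlap. Relative to the dendritic cell markers, the chains stood at 2.07 and 1.39 in WT and at 2.27 and 2.53 in the other group, but without Ccr7, which dominated that sum, the values were 7.16 and 5.70 against 6.34 and 6.55 and overlapped. Relative to the whole epithelial list the chains were lower under the knockout label, at 1.29 and 0.820 against 3.62 and 4.42. That sum held Sftpb, Lamp3 and Slc34a2, and Sftpc made up much of it in the ICAM-1 KO-labelled libraries, at 253 and 537. Relative to the 13 ILC2 genes the chains were higher, at 0.101 and 0.118 against 0.0540 and 0.0434. Arg1, Id2, Il5 and Il2ra, which fell, contributed much to that sum, while 7 of the 13 genes were called in neither direction. Neither ratio was computed without these genes. Ratios within a library are given as descriptions, without a test.

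Class II promoters carry a shared arrangement of short elements, the X box bound by RFX, the X2 box bound by CREB and the Y box bound by NF-Y, on which CIITA assembles. Promoter entries of RefSeq (GRCm38.p6) were matched for 6 of the 10 members by symbol, namely H2-Aa, H2-Eb1, H2-DMa, H2-DMb1, H2-DMb2 and Cd80, and not for H2-Ab1, Cd74, Ciita and Cd86. Shown are the bases before the RefSeq start site of 3 members that rose and of H2-Ob, a class II regulator gene, each written 5′ to 3′ along the gene, with the matched letters of the boxes in capitals. The H2-Aa stretch is chr17:34287824-34287973 on the minus strand, where the capitals mark the X2 box and then the Y box. The other stretches lie on the plus strand at chr17:34305717-34305866, chr17:34145099-34145235 and chr17:34238755-34238902, where the capitals mark the X box and then the Y box. The H2-DMb2 stretch precedes a RefSeq start site that lies within the H2-DMb2 gene as the files place it, so it is not upstream of the whole gene.
H2-Aa: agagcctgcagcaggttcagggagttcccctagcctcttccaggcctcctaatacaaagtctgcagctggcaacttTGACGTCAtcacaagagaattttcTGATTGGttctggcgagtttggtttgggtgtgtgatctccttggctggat
H2-Eb1: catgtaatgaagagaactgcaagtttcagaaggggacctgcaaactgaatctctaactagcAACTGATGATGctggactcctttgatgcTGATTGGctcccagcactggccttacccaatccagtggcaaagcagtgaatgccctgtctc
H2-DMb2: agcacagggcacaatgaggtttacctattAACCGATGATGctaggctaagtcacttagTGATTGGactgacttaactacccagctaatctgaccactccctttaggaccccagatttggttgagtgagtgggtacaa
H2-Ob: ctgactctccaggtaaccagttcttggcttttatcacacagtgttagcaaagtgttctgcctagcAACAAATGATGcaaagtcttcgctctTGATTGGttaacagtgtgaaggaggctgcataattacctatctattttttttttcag

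The letters searched on both strands were TGATTGG for the Y box, AAC followed by NN and ATGATG for the X box, where N is any base, and TGACGTCA for the X2 box, and they were chosen after these promoters had been read. Between the X box and the Y box lay 17 bases in H2-Eb1, 18 in both H2-DMb1 and H2-DMb2 and 15 in H2-Ob, and in H2-Aa 16 bases separated the X2 box from the Y box. As with H2-DMb2, the RefSeq start site used for H2-DMb1 lies within the gene as placed here, and so do its boxes. Among 32851 windows of the 250 bases before a gene start, 7.23% held the Y box letters, 0.119% the X box letters and 1.55% the X2 box letters. Neither the H2-DMa nor the Cd80 entry held any of the 3, which says only that these letters are not in that window. H2-Oa, the partner gene of H2-Ob, held the Y box letters without the X box letters. Whether these letters go with the change in RNA was not tested.

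The H2-DM genes, which encode the peptide exchange factor, were all higher, but to different degrees. H2-DMa, the α chain (chr17:34135182-34139101, plus strand), had normalized counts of 35.9 and 35.2 in WT and of 46.3 and 50.8 in the ICAM-1 KO-labelled libraries. These groups were tight and apart, with a log2 difference of 0.48 (SE 0.133, adjusted p = 0.0449). That call was close to the threshold: 6 of the 9 other settings put its adjusted p above 0.05, with a range from 0.0252 to 0.130, and it was lost whichever library was left out. H2-DMb2, a β chain (chr17:34143307-34151553, plus strand), had 23.4 and 21.4 in WT and 48.8 and 42.9 in the other group. Its values in the ICAM-1 KO-labelled libraries were about double those in WT (log2 difference 1.06, SE 0.150, adjusted p = 0.00346), and it was the only H2-DM gene past the 2-fold limit. H2-DMb1, the neighbouring β chain (chr17:34153072-34160230, plus strand), had 19.2 and 22.3 in WT and 23.7 and 40.4 in the other group. Here the first ICAM-1 KO-labelled library lay just above WT and the second far above it, and the log2 difference of 0.66 (SE 0.253) did not pass (adjusted p = 0.115). Without the second ICAM-1 KO-labelled library the difference was 0.21, and without the first it was 0.999.

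Part of the H2-DMb1 and H2-DMb2 reads are hard to separate. Their transcripts were 93.9% identical over 1255 aligned bases. Of the 50-base windows of the H2-DMb1 coding transcripts, 27.2% occurred unchanged in those of H2-DMb2, and 21.2% did so in the other direction. The authors' counting splits a read that fits both, so the share given to each gene is uncertain. The H2-DMb2 to H2-DMb1 ratio per length was 1.17 and 0.925 in WT and 1.98 and 1.02 in the ICAM-1 KO-labelled libraries, and here the groups overlapped. Added together, the normalized counts of both β chain genes were 42.6 and 43.7 in WT and 72.5 and 83.3 in the ICAM-1 KO-labelled libraries, which lay apart. The ratio of H2-DMa to the summed β chains, per length, was lower under the knockout label, at 0.320 and 0.303 against 0.420 and 0.400. The ratio of H2-Ab1 to H2-DMa, per length, was 7.69 and 6.55 in WT and 8.81 and 9.71 in the other group, which lay higher.

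Ciita, the gene of the class II coactivator (chr16:10480059-10528418, plus strand), was the lowest of the 10 genes per length and did not pass the test. It had 255 and 114 reads in WT and 167 and 235 in the ICAM-1 KO-labelled libraries, or normalized counts of 8.45 and 3.64 against 5.83 and 7.52. Both ICAM-1 KO-labelled libraries thus fell between the WT values, and the log2 difference was 0.19 (SE 0.410, adjusted p = 0.804). Without the first WT library it was 0.91, without the second it was -0.31, and without the second ICAM-1 KO-labelled library it was -0.03, so its direction was not stable. At this spread, a difference of the size seen in the chains could not be told from none. Ciita also overlaps Dexi on the opposite strand.

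The costimulatory ligand genes Cd80 and Cd86 were scarce and were higher under the knockout label. Cd80 (chr16:38455561-38496335, plus strand) had 111 and 169 reads in WT and 337 and 442 in the ICAM-1 KO-labelled libraries, with normalized counts of 3.70 and 5.38 against 11.7 and 14.1. Every ICAM-1 KO-labelled library held over double the Cd80 of any WT library, and its log2 difference of 1.54 (SE 0.301, adjusted p = 0.0132) was the largest of the 10. Its adjusted p was 0.0692 without the first WT library. Cd86 (chr16:36603869-36666081, minus strand) had 165 and 163 reads in WT and 244 and 535 in the other group, with normalized counts of 5.48 and 5.19 against 8.50 and 17.1. Its groups did not overlap, but the second ICAM-1 KO-labelled library stood at about double the first. The log2 difference of 1.31 (SE 0.377) missed the threshold at an adjusted p of 0.0510. It was 0.69 without the second ICAM-1 KO-labelled library (adjusted p = 0.337) and 1.72 without the first (adjusted p = 0.00183). The Cd86 to Cd80 ratio per length was 1.50 and 0.976 in WT and 0.732 and 1.22 in the other group, and overlapped.

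**Figure D3:**
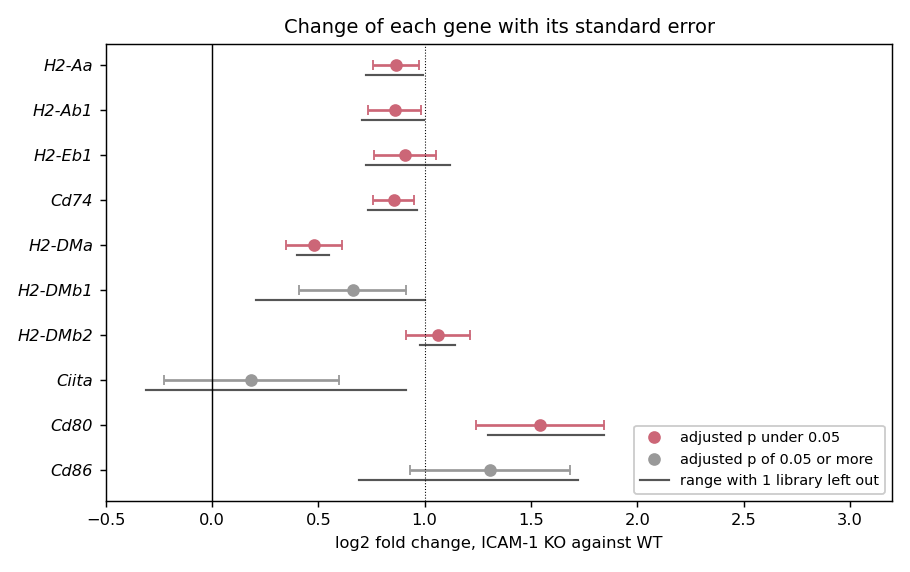
Log2 difference of each of the 10 genes, ICAM-1 KO-labelled libraries minus WT, with bars of 1 SE from edgeR, red points where the adjusted p was under 0.05 and grey points elsewhere, a dark line for the range with 1 library left out, and a dotted line at the 2-fold limit. The 4 genes H2-Aa, H2-Ab1, H2-Eb1 and Cd74 lie between 0.85 and 0.91, Cd80 is the farthest at 1.54 and Ciita is the nearest to 0.

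Levels of different genes were compared in RPKM, the reads of a gene divided by its exon length and by the depth of the library, with SD over 2 libraries. In WT, Cd74 stood at 374 ± 16.9 RPKM, above H2-Ab1 at 81.2 ± 11.1, H2-Eb1 at 49.3 ± 9.90 and H2-Aa at 36.3 ± 1.98. H2-DMb2 at 14.1 ± 0.997, H2-DMb1 at 13.6 ± 1.31 and H2-DMa at 11.4 ± 0.266 formed a middle tier by this length, in which the 2 β chain genes did not differ beyond their spread. Cd86 at 1.60 ± 0.0759 and Cd80 at 1.34 ± 0.343 were likewise within their spread by this length, and Ciita stood at 0.698 ± 0.400. In the ICAM-1 KO-labelled libraries the order was the same down to H2-DMa, with Cd74 at 692 ± 62.3, H2-Ab1 at 150 ± 18.4, H2-Eb1 at 94.4 ± 10.2 and H2-Aa at 67.7 ± 7.30. There Cd80, at 4.01 ± 0.479, and Cd86, with an SD of 1.86, had nearly equal means, and Ciita was lowest at 0.802 ± 0.135. The places of H2-Aa and H2-DMa, and the gaps between Cd86 and Cd80 and between H2-DMb1 and H2-DMb2, depended on the length used. With the longest coding transcript (1128 bases) in place of all annotated exons (3798 bases), H2-Aa stood at 122 RPKM in WT, above H2-Eb1 at 57.4. Under the knockout label the values were 228 and 110. With that length H2-DMa, at 19.6 RPKM in WT, stood above H2-DMb2 at 16.7 and H2-DMb1 at 16.3. With the mean transcript length H2-DMa was the highest of the 3 H2-DM genes in both groups, at 41.1 and 58.6. That length put WT Cd86, at 4.97 ± 0.236, above Cd80, at 2.65 ± 0.678, beyond their spread. The longest coding transcript gave 2.31 ± 0.109 and 1.57 ± 0.401. Under the knockout label the mean transcript length gave 12.4 ± 5.78 for Cd86 and 7.92 ± 0.946 for Cd80. In WT it put H2-DMb1, at 26.2 ± 2.52, above H2-DMb2, at 17.1 ± 1.21.

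**Figure D4:**
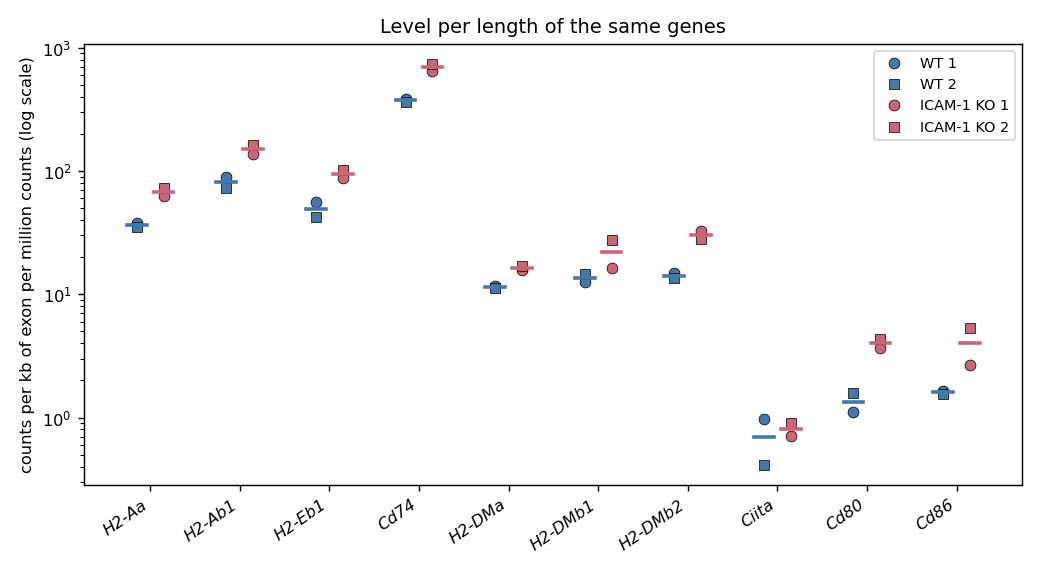
Level per length (RPKM over the union of exons, log axis) of the 10 genes, with a point for each library, WT in blue and the ICAM-1 KO label in red, and a bar at the group mean. Cd74 is highest in all 4 libraries, the class II chains follow, and Cd86, Cd80 and Ciita are lowest.

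The 5 genes whose centred log2 levels over the 4 libraries came nearest to the mean profile of H2-Aa, H2-Ab1, H2-Eb1 and Cd74 were Ube2h, Cavin1, Tmem243, Clec2i and Zfp942, out of 8918 genes. Their root mean square differences from it were 0.0142, 0.0449, 0.0450, 0.0474 and 0.0534. Among the 4 genes themselves, H2-Ab1 was nearest to the mean at 0.0234 and H2-Eb1 farthest at 0.0703, while H2-DMb2, H2-DMa and H2-DMb1 stood at 0.181, 0.211 and 0.272. With 4 libraries this likeness is a description only.

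Beyond the members, 6 lists of 48 further genes of presentation and costimulation were looked up in the same fit. Of these, 42 were tested, 9 rose and 1 fell, while 8.8% of all genes tested rose and 4.97% fell. Among the other class II genes, 2 of 3 tested rose. H2-Ob, a chain of the H2-DM inhibitor H2-O, had 322 and 264 reads in WT and 709 and 476 in the ICAM-1 KO-labelled libraries (log2 difference 1.09, adjusted p = 0.0369). This call was lost with no filter on low counts (0.124), with filterByExpr (0.0562) and in 3 of 4 cases when a single library was left out. Cd83, a surface protein that keeps class II and CD86 on the membrane, had 6057 and 6300 reads in WT and 8371 and 10686 in the other group (0.69, adjusted p = 0.00417). H2-Oa, the partner of H2-Ob, named here after its values were seen, had 800 and 874 reads in WT and 603 and 667 in the other group (-0.33, adjusted p = 0.212). The H2-Ob to H2-Oa ratio per length was therefore higher in both ICAM-1 KO-labelled libraries, at 0.308 and 0.187 against 0.105 and 0.0790. H2-Eb2, a class II β chain gene, had 0 reads in both WT libraries and 17 and 6 in the others and was not tested. A count of 0 allows up to 3 reads, so the lower of these values exceeds that limit only slightly.

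Of 8 antigen processing genes, only Ctss, the cathepsin S gene, rose. Its normalized counts were 72.6 and 93.0 in WT and 125 and 172 in the ICAM-1 KO-labelled libraries, which do not overlap (log2 difference 0.87, adjusted p = 0.0131, but 0.0853 with no filter on low counts and 0.0799 without the first WT library). Ctsd, which encodes cathepsin D and was the most abundant of the list, had 398 and 412 in WT and 426 and 454 in the other group (0.15, adjusted p = 0.273). The list's median was 0.15. None of the 11 partners and regulators of Ciita passed the test in edgeR, DESeq2 or limma, 1 was lower at an unadjusted p under 0.05, and their median was 0.15. The most abundant of them was Irf4, a lymphocyte transcription factor, at 97.0 and 166 in WT and 82.8 and 88.3 in the other group (-0.59, adjusted p = 0.0923).

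The interferon gamma route, the classical inducer of Ciita, gave a median of -0.03 over 9 genes. At an unadjusted p under 0.05 in edgeR, 3 of these were higher and 1 was lower. Jak2, a kinase of the interferon gamma receptor, rose by 0.32 (adjusted p = 0.0365) and the transcription factor gene Irf2 fell by 0.54 on the log2 scale (adjusted p = 0.0471), whereas the most abundant, the kinase gene Jak1, differed by -0.08 (adjusted p = 0.565). Both calls were lost when single libraries were left out, Jak2 in all 4 cases. Among 5 other ligands tested, the inhibitory ligand genes Cd274 (PD-L1) and Vsir (VISTA) rose, by 0.58 (adjusted p = 0.0378) and 1.48 (adjusted p = 0.00523), with a list median of 0.58. The Cd274 call was lost with no filter on low counts (0.128), with filterByExpr (0.0626) and in 3 of 4 cases when a single library was left out. Vsir had normalized counts of 15.1 and 27.1 in WT and of 55.1 and 60.6 in the ICAM-1 KO-labelled libraries.

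Of 6 tested receptors that bind class II or the costimulatory ligands, 3 rose. Cd28, the activating receptor for CD80 and CD86, had normalized counts of 25.4 and 39.8 in WT and of 82.5 and 105 in the ICAM-1 KO-labelled libraries (log2 difference 1.55, adjusted p = 0.00271). Cd4, the coreceptor for class II, had 22.3 and 27.3 in WT and 61.5 and 80.5 in the other group (1.55, adjusted p = 0.00143). Cd40lg, the ligand of CD40, rose by 1.06 (adjusted p = 0.0376), a call that was lost with no filter on low counts (0.102), with filterByExpr (0.0526), with the older quasi-likelihood form (0.0562) and in 3 of 4 cases when a single library was left out. Pdcd1, which encodes PD-1 and was the most abundant, differed by -0.22 (adjusted p = 0.115). The list median was 0.70. Cd4 marks T helper cells, which the gate was set to remove. Beside it, 5 of 9 T cell markers rose, against 8.8% of all genes tested. Another 2 of the 9 had a negative difference, of which 1 was lower at an unadjusted p under 0.05 in edgeR. The list's summed normalized counts were 677 to 748 in WT and 1044 to 1226 under the knockout label. The part of such transcripts was not tested.

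**Figure D5:**
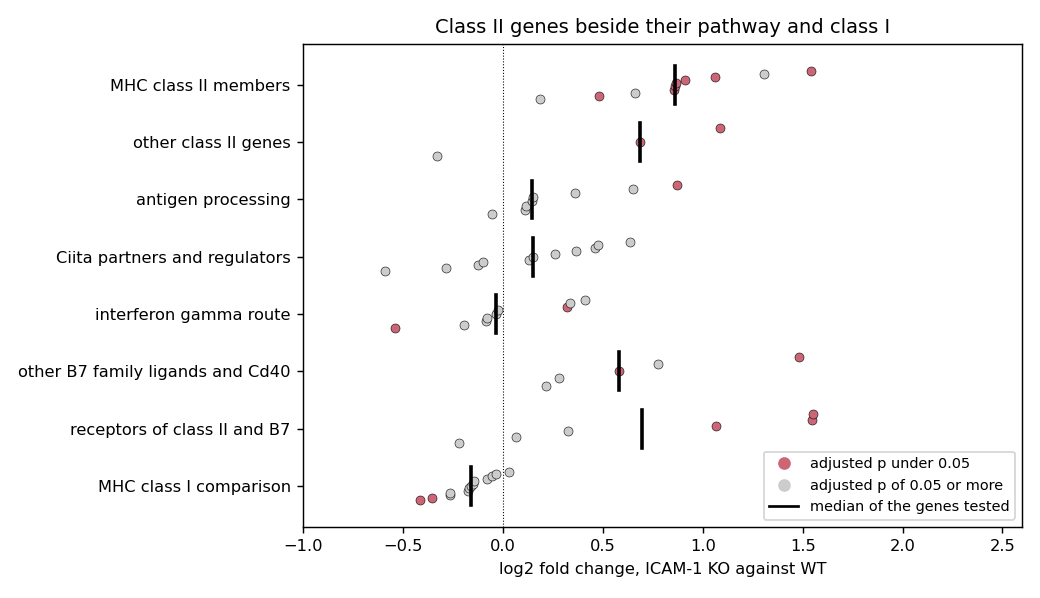
Log2 differences, ICAM-1 KO-labelled libraries minus WT, for each tested gene of the 10 class II members, the 6 further lists and the MHC class I list, with red points where the adjusted p was under 0.05, grey points elsewhere and a bar at each list's median. The class II members lie above 0, while 12 of 13 MHC class I genes lie below it.

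The MHC class I genes, which present peptides to CD8+ T cells and are expressed by nearly all cells, showed no rise in these libraries. None of 13 rose in edgeR, adjusted or not, or with DESeq2 or limma, against 8.8% of all genes. A negative difference was seen in 12 of 13, against 48.8% of all genes tested, and the median was -0.16. Whether class I and class II genes differed in their change was not tested. The immunoproteasome subunit genes Psmb8 and Psmb10 fell by 0.35 (adjusted p = 0.0239) and 0.42 (adjusted p = 0.0223) on the log2 scale, though neither passed without either WT library or without the first ICAM-1 KO-labelled library. H2-D1, the most abundant, had normalized counts of 3917 and 4114 in WT and of 3344 and 3773 in the ICAM-1 KO-labelled libraries (-0.15, adjusted p = 0.347). Per length, H2-Ab1 stood at 0.0907 and 0.0704 of the level of the class I chain gene H2-K1 in WT and at 0.164 and 0.185 of it in the ICAM-1 KO-labelled libraries.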

How the data were processed

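RNA of sorted lung ILC2s was sequenced in 4 libraries, 2 per genotype, grouped by their labels. The libraries were pools of mice, so p-values measure the spread between pools. The authors prepared cDNA with a low-input SMARTer kit, aligned reads with STAR to mm10 and, with GENCODE M20, deposited estimated counts per gene from Partek's E/M method, which are not normalized, and a signal scaled by upper quartile for 18324 genes. The submitters' processing notes name STAR 3.5.3 and CASAVA 1.8.2. The paper names another STAR version, so the version used is uncertain. Gene ends were moved by 1 base to match the annotation. Whether counting used strand is not given in the sources used here, so overlapping antisense genes cannot be told apart.

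Estimated counts were rounded and fitted with edgeR 4.0.16 (R 4.3.3; quasi-likelihood, upper quartile factors) across the 11711 genes whose normalized counts averaged 1 or more and summed to 10 or more, with Benjamini-Hochberg adjustment over all of them. Called meant an adjusted p under 0.05, and at least 2-fold where stated. Levels per length used GENCODE M21 exons. The scripts were tested on simulated counts. Alternatives were TMM factors, DESeq2 1.42.0, 3 other filters, the older quasi-likelihood form, limma 3.58.1 with pseudocounts of 1 and 0.1, a replicate block, leaving out each library and other gene lengths, of which the longest coding transcript was added after seeing the data, as were marker sums without Ccr2 or Ccr7 and counts of markers by their WT mean. Members, gene lists and tests were chosen with earlier results of these data known. Genes named were all members, genes of each list with an adjusted p under 0.05, the most abundant gene of each list, the 2 most abundant markers of each class II positive cell type, the 5 nearest profiles, and Gata3, Il1rl1, H2-Oa and the called ILC2 genes, chosen after their values were seen. H2-Ea and H2-Ea-ps were listed but not analysed here.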

Additional observations from a re-analysis of the deposited data

How the results depend on the processing

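Of the 10 genes, H2-Aa, H2-Ab1, Cd74 and H2-DMb2 stayed under an adjusted p of 0.05 in all 9 other settings and without any single library. H2-Eb1 missed it with no filter on low counts (0.0554), as did Cd80 (0.0529). Without that filter the genes called over the whole table numbered 312 in place of 641, the members past the 2-fold limit 1 in place of 2, the members past the adjusted p alone 4 in place of 7, and the 42 pathway genes past it 4 in place of 10, with 22158 genes then tested. With filterByExpr 5 pathway genes passed. Leaving out single libraries gave 388 to 676 genes called, 2 to 3 members past the 2-fold limit, 5 to 8 members past the adjusted p and 5 to 9 pathway genes past it. The lowest whole-table and pathway counts came without the first WT library. Ciita changed direction without the second WT library (-0.31) and without the second ICAM-1 KO-labelled library (-0.03), and gave 0.91 without the first WT library. MHC class I calls were 4 with DESeq2 and 0 without either WT library or without the first ICAM-1 KO-labelled library.

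Replicate numbers are shared between the groups but mark different animals, and same-numbered libraries did not deviate together (correlation -0.0293). With a replicate block 668 genes, 3 members past the 2-fold limit, 7 members past the adjusted p and 13 pathway genes were called, and MHC class I calls were 4. With the block H2-DMa no longer passed (0.0565) and Cd86 did (0.0355). Cd86 also passed with TMM factors and DESeq2.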
